A study of Mus musculus with 6 samples.

Results

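The P2X purinergic receptors are the ion channels that open when extracellular ATP binds to them, and their genes were taken from the count tables by symbol, P2rx1 to P2rx7. All 7 genes were present among the 35976 genes listed for each culture, and 6 of them passed the low-count filter and were tested, P2rx1 being left out. RNA was sequenced from mouse neurons of the dorsal root ganglia (DRG), which carry touch, temperature and pain signals to the spinal cord, in culture and after removal of ribosomal RNA. The question was whether HC-HA/PTX3, a complex of hyaluronic acid, a heavy chain and pentraxin 3 purified from human amniotic membrane, changes gene expression in these neurons. There were 3 vehicle cultures and 3 cultures given 15 µg/mL HC-HA/PTX3 for 24 h, in each case after 24 h of plating. All 6 came from lumbar ganglia of wildtype C57BL/6 mice of both sexes at 2 to 3 months of age, dissociated with enzymes and grown with serum and growth factors on laminin and poly-D-lysine, so the vehicle cultures carried the growth factors too. The vehicle libraries 1, 2 and 3 held 42516054, 42617496 and 54117547 counts, and the HC-HA/PTX3 libraries with these numbers held 37998071, 37434266 and 38420247. Each HC-HA/PTX3 library held fewer counts than any vehicle library, so depth and treatment cannot be told apart in this design.

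Each P2X channel is a trimer of subunits around a pore for sodium and calcium, and subunits of different genes can combine. In sensory ganglia, P2X3 alone and P2X3 together with P2X2 carry the response of nociceptors to ATP released by damaged cells. P2X4 and P2X7 are known best from microglia and macrophages, where P2X7 drives the NLRP3 inflammasome, and P2X7 has also been described in the satellite glia that wrap DRG cell bodies. Surface enzymes, the ectonucleotidases, break ATP down to adenosine and so end P2X signalling, while pannexin and other channels release the ATP.

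In mm10, the 7 genes lie on 4 chromosomes. P2rx7 (chr5:122643911-122691432) and P2rx4 (chr5:122707544-122729738) are neighbours on the plus strand, with 16111 bp between the end of the first and the start of the second. P2rx2 (chr5:110339812-110343212) is on the minus strand of the same chromosome. P2rx1 (chr11:72999103-73015200) and P2rx5 (chr11:73160421-73172685) share the plus strand of chromosome 11. P2rx3 (chr2:84998583-85037462) is on the minus strand of chromosome 2, and P2rx6 (chr16:17561885-17577800) on the plus strand of chromosome 16. The 250 bases before the start sites of P2rx7 and P2rx4 are shown because, of these adjacent genes, P2rx7 passed the test between replicate numbers described further on and P2rx4 did not, a contrast between the genes that was not itself tested. Both sequences are on the plus strand, from RefSeq on GRCm38.p6, and P2rx7 has 2 listed start sites, at chr5:122643677-122643926 and chr5:122650133-122650382, whose transcripts are summed in its count. The first window reaches into the opening bases of P2rx7 as GENCODE places it. The P2rx4 window is chr5:122707294-122707543. Capitals mark matches to GGGCGG (GC box) or ACAAAG (the core of SOX sites), searched on both strands, so that CCGCCC and CTTTGT are the same motifs read from the other strand.
P2rx7 start 1: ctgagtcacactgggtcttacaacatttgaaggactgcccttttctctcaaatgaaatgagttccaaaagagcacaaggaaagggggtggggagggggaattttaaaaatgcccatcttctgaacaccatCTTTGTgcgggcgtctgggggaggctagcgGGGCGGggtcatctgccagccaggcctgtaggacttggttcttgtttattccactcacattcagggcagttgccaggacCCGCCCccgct
P2rx7 start 2: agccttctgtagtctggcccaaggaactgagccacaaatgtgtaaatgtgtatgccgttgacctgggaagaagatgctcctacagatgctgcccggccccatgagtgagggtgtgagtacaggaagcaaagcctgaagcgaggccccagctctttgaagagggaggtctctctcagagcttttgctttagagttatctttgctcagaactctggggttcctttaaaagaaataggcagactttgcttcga
P2rx4: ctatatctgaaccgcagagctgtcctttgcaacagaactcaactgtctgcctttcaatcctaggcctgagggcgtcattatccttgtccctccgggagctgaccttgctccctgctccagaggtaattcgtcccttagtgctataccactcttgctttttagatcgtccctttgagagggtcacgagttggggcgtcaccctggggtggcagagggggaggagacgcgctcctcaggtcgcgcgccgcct
The first P2rx7 window holds 2 GC boxes, 90 and 11 bp before the start, and 1 SOX core, 120 bp before it. No match was found in the second P2rx7 window or in the P2rx4 window. Of the P2X windows not shown, that of P2rx6 holds 1 GC box, 19 bp before the start, and 1 SOX core, 95 bp before it. That of P2rx1 holds no match. Of 32851 mouse windows of the same length, 32.7% hold a GC box and 16.5% hold a SOX core. The motifs were chosen after the values had been seen, and a match is a description of the letters in the window.

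Levels between genes were compared as CPM per kilobase, the library-scaled count (CPM, by TMM) divided by the length of all exons of the gene. P2rx3 was by far the most abundant member, at 133 ± 35.0 CPM per kilobase in the vehicle cultures (SD, n = 3). P2rx7 followed at 14.5 ± 4.92 CPM per kilobase and P2rx4 at 4.15 ± 0.320 CPM per kilobase. The lower members were P2rx5 at 1.91 ± 0.183, P2rx6 at 1.12 ± 0.399, P2rx2 at 0.172 ± 0.0724 and P2rx1 at 0.0436 ± 0.0481 CPM per kilobase (SD, n = 3 each). On this scale, each step in the order was larger than the sum of the SDs of the neighbouring members. With the longest transcript as the length, added after the values had been seen, the order was the same, with P2rx3 at 204 ± 53.8, P2rx7 at 17.5 ± 5.95 and P2rx4 at 7.48 ± 0.576 CPM per kilobase (SD, n = 3 each), while the step from P2rx5 to P2rx6 (0.590 CPM per kilobase) was smaller than the sum of their SDs (0.655). The union of exons of P2rx4 includes retained introns. On the scale of all exons, the narrowest step relative to the SDs was that between P2rx2 and P2rx1, which were counted 16 to 26 times and 0 to 14 times in the vehicle libraries. At these depths 1 CPM stood for 37.1 to 56.0 counts, and a gene with no count could have a level of up to 0.0536 to 0.0808 CPM, the equivalent of 3 counts. These limits cover counting error only.

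**Figure D1:**
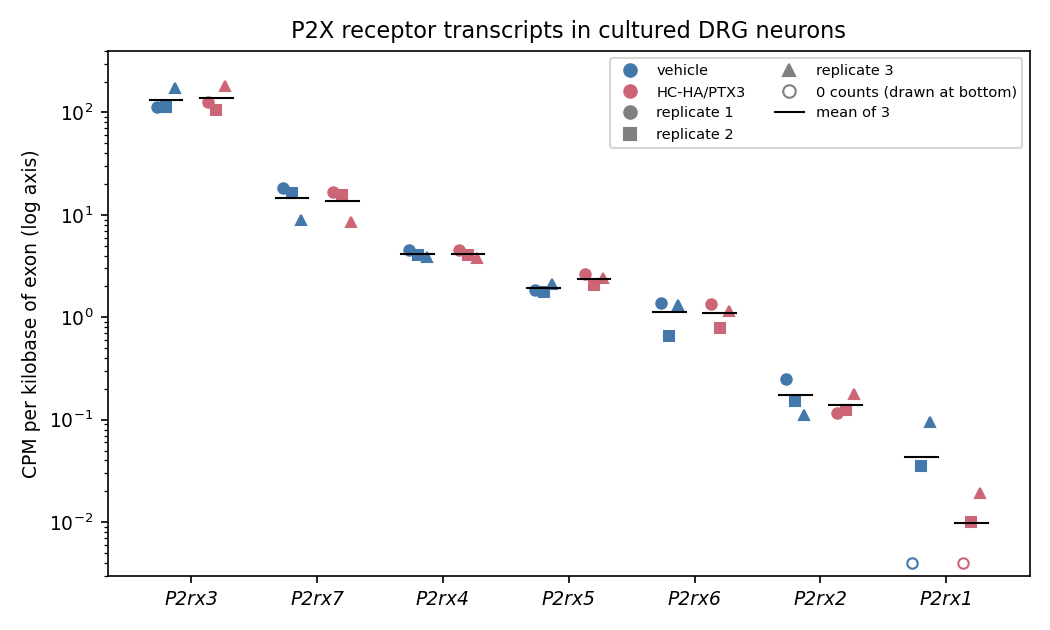
Level of each P2X gene in CPM per kilobase of exon (log axis) in every vehicle and HC-HA/PTX3 culture, with a symbol for each replicate number and a line at the mean of 3. P2rx3 lies highest, at a mean of 133 in the vehicle cultures, and the symbols of the groups overlap for P2rx2, P2rx3, P2rx4, P2rx5, P2rx6 and P2rx7.

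None of the 6 tested P2X genes was called between HC-HA/PTX3 and vehicle by the criteria used, an adjusted p under 0.05 together with a log2 fold change beyond 0.5 in either direction in the quasi-likelihood test of edgeR, adjusted by the Benjamini-Hochberg method, in which the replicate number was a block. The count was 0 of 6, where 8.70% of all 18277 tested genes were called, 3.32% higher and 5.38% lower. At an unadjusted p under 0.05 there was 1 of 6 members, P2rx5, where 33.2% of all tested genes reached that level. DESeq2, limma-voom and ComBat-seq followed by limma also called 0 members, DESeq2 giving no adjusted p for P2rx2. With no replicate block, edgeR called 0 members too and 0 members had an unadjusted p under 0.05, while the share of all genes called was 0.00% and the share with an unadjusted p under 0.05 was 11.4%. The groups of 3 overlapped for all 6 tested members, and they did not overlap for 18.0% of all tested genes. The median log2 fold change was -0.01 over the 6 members and -0.01 over all tested genes.

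P2rx3, the subunit that defines ATP-gated nociceptors, was at 314, 313 and 483 CPM in vehicle replicates 1, 2 and 3 and at 351, 295 and 505 CPM in HC-HA/PTX3 replicates 1, 2 and 3. Both cultures numbered 3 were the high ones, and the groups overlapped. P2rx3 had a log2 fold change of 0.05 (SE 0.0675, 95% interval -0.10 to 0.20, adjusted p = 0.682 in edgeR, Benjamini-Hochberg adjustment), and it was higher in 2 of 3 pairs. Without the pair numbered 1, the log2 fold change of P2rx3 was -0.01. With the replicate block, the interval of P2rx3 excluded a change of 0.5 in either direction. With no replicate block the SE of P2rx3 was 0.251, so this exclusion is stated for the blocked fit only.

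P2rx2, the partner of P2X3 in heteromeric channels, had 26, 17 and 16 counts in the vehicle libraries, against 11, 12 and 18 counts in the treated ones. In CPM, P2rx2 was at 0.649, 0.396 and 0.286 with vehicle and at 0.296, 0.317 and 0.457 with HC-HA/PTX3. The highest of the 6 values belonged to vehicle replicate 1 and the lowest to vehicle replicate 3, so the vehicle range enclosed all treated values. P2rx2 had a log2 fold change of -0.25 (SE 0.406, 95% interval -1.15 to 0.65, adjusted p = 0.711 in edgeR, Benjamini-Hochberg adjustment), and it was higher in 1 of 3 pairs. The sign of the P2rx2 value turned without the pair numbered 1, to 0.20. A change of 0.5 in P2rx2 was not detectable at this depth, since the interval covers it in both directions.

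P2rx5, a subunit that can join P2X1 in heteromeric channels, was at 4.42, 4.24 and 5.07 CPM in vehicle replicates 1, 2 and 3 and at 6.30, 4.96 and 5.84 CPM in the HC-HA/PTX3 replicates. Every treated value of P2rx5 was above the vehicle value of the same number, but HC-HA/PTX3 replicate 2 lay below vehicle replicate 3. P2rx5 had a log2 fold change of 0.31 (SE 0.139, 95% interval 0.00 to 0.62), with an unadjusted p of 0.0476 and an adjusted p of 0.145 in edgeR with Benjamini-Hochberg adjustment. Across the alternatives, the adjusted p of P2rx5 ran from 0.0133 with ComBat-seq and limma to 0.553 with no replicate block, and the log2 fold change stayed between 0.21 and 0.39, under the threshold of 0.5. The ComBat-seq setting estimates the spread after the correction without accounting for that step. P2rx6, a subunit that forms channels mainly with other members, was at 5.52, 2.63 and 5.25 CPM with vehicle and at 5.36, 3.11 and 4.65 CPM with HC-HA/PTX3. Both cultures numbered 2 were the low ones for P2rx6, and the groups overlapped. P2rx6 had a log2 fold change of -0.01 (SE 0.150, 95% interval -0.34 to 0.33, adjusted p = 0.983 in edgeR, Benjamini-Hochberg adjustment), and its sign turned under upper-quartile scaling (0.03) and ComBat-seq (0.05) and without the pair numbered 1 (0.02) or 3 (0.10).

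P2rx7, the receptor that opens at high ATP, was at 108, 98.2 and 53.1 CPM in vehicle replicates 1, 2 and 3 and at 98.9, 93.6 and 50.5 CPM in the HC-HA/PTX3 replicates. Both cultures numbered 3 were the low ones, and the groups overlapped. P2rx7 had a log2 fold change of -0.09 (SE 0.0618, 95% interval -0.23 to 0.05, adjusted p = 0.333 in edgeR, Benjamini-Hochberg adjustment), with lower values in 3 of 3 pairs. Across the alternatives, the adjusted p of P2rx7 ran from 0.0470 with ComBat-seq and limma to 0.9495 with no replicate block, and its log2 fold change from -0.11 to -0.06. P2rx4, its neighbour on the chromosome, was at 31.7, 28.2 and 27.5 CPM with vehicle and at 31.6, 28.4 and 26.7 CPM with HC-HA/PTX3. Same-numbered cultures nearly coincided for P2rx4, the widest gap being that of the pair numbered 3. P2rx4 had a log2 fold change of -0.01 (SE 0.0776, 95% interval -0.18 to 0.16, adjusted p = 0.941 in edgeR, Benjamini-Hochberg adjustment), and its sign turned under upper-quartile scaling (0.02) and ComBat-seq (0.00225) and without the pair numbered 3 (0.02). With the replicate block, the intervals of P2rx4, P2rx6 and P2rx7 excluded a change of 0.5 in either direction. That of P2rx5 excluded a fall but not a rise of that size. With no replicate block, the SEs were 0.116 for P2rx4, 0.177 for P2rx5, 0.340 for P2rx6 and 0.335 for P2rx7. These exclusions are therefore stated for the blocked fit only.

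P2rx1, the subunit of platelets and smooth muscle, had 0, 4 and 14 counts in vehicle libraries 1, 2 and 3, against 0, 1 and 2 counts in the treated libraries. The counts of P2rx1 were thus at or under the limit of 3 in both cultures numbered 1 and in all 3 treated libraries. When the low-count filter was not applied, P2rx1 was tested and not called (adjusted p = 0.371, edgeR with Benjamini-Hochberg adjustment). In that unfiltered fit edgeR estimated an infinite prior degree of freedom, so that each gene took its spread from the trend over all genes and not from its own cultures, and its p-values are less reliable than those of the filtered fit.

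**Figure D2:**
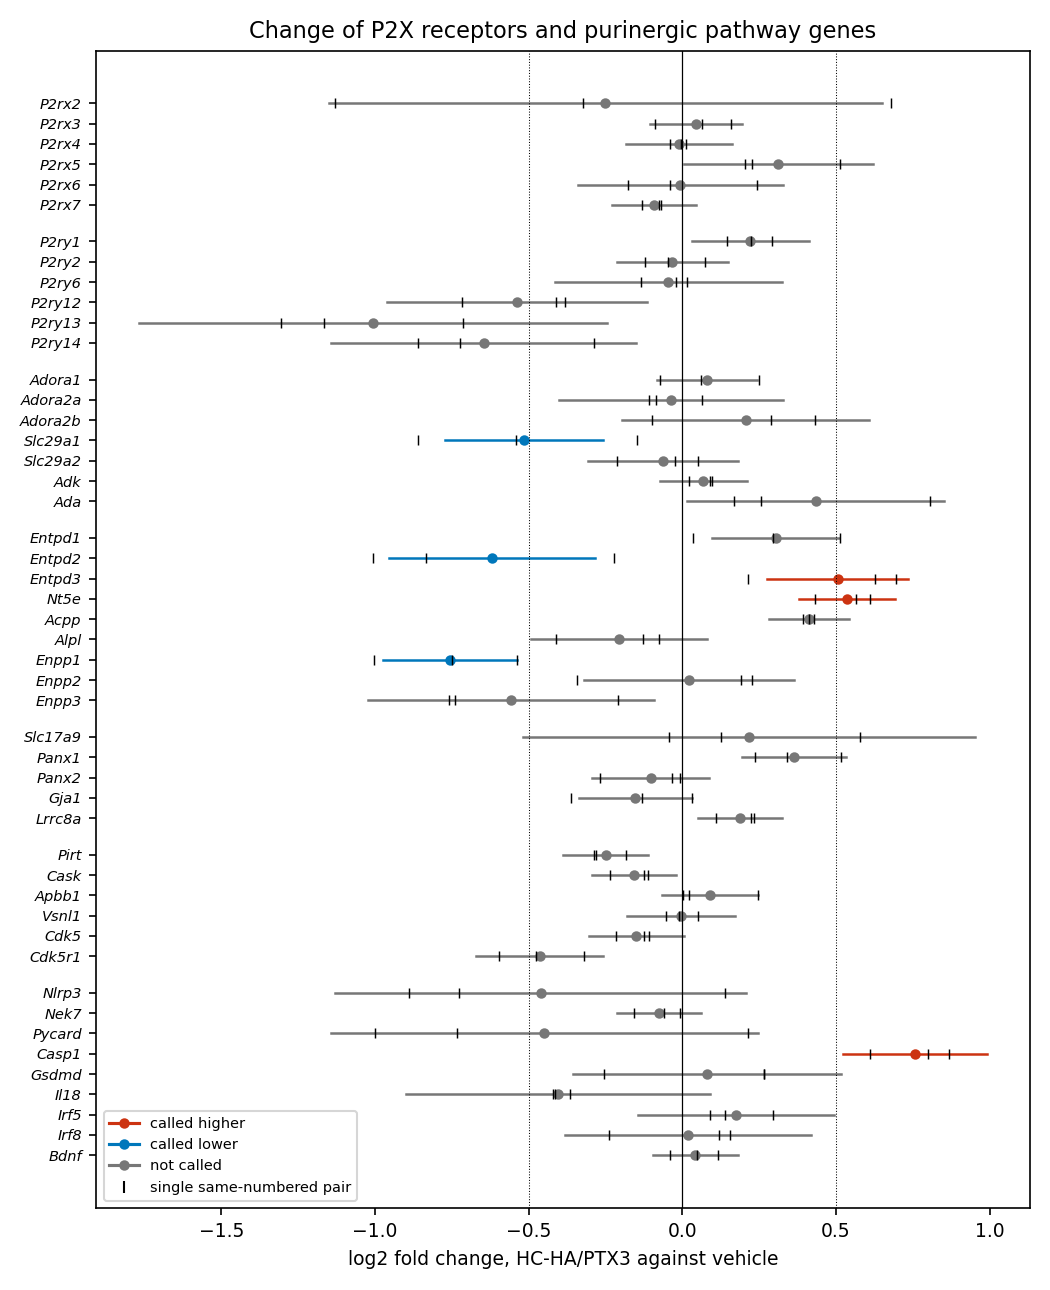
Log2 fold change of HC-HA/PTX3 against vehicle for the 6 tested P2X genes and the 42 tested genes of the purinergic lists, with points for the estimates, bars for the 95% intervals, ticks for the 3 same-numbered pairs and dotted lines at -0.5 and 0.5. No P2X gene was called, and 3 pathway genes were called higher and 3 lower; the signs of P2rx4 and P2rx6 turned under upper-quartile scaling and ComBat-seq, and with cultures left out, those of P2rx2, P2rx3 and P2rx6 turned without the pair numbered 1 and those of P2rx4 and P2rx6 without the pair numbered 3.

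The makeup of the P2X family was expressed as the share of each member in the length-scaled P2X total of a culture. P2rx3 made up 81.2, 83.0 and 91.3% of this total in vehicle replicates 1, 2 and 3 and 83.4, 82.3 and 91.9% in the HC-HA/PTX3 replicates. The cultures numbered 3 had the highest P2rx3 share in both groups, and the groups overlapped. Means were 85.2 ± 5.41% with vehicle and 85.8 ± 5.24% with HC-HA/PTX3 (SD, n = 3 each; two-sided exact permutation test, p = 0.7, and 0.9 after Benjamini-Hochberg adjustment over the 7 shares). P2rx7 held 13.1, 12.1 and 4.70% with vehicle and 11.0, 12.2 and 4.29% with HC-HA/PTX3, and its share was lowest where that of P2rx3 was highest. For P2rx7, the means of 9.97 ± 4.59% and 9.16 ± 4.26% did not differ by more than the spread (exact permutation test, p = 0.6, adjusted p = 0.9, n = 3 each). The share of P2rx4 was 1.93 to 3.25% over the 6 cultures. P2rx5 held 1.33, 1.31 and 1.12% with vehicle and 1.74, 1.61 and 1.24% with HC-HA/PTX3, higher in 3 of 3 pairs with groups that overlapped. All 7 adjusted values of the exact permutation test over cultures were 0.9, in a design whose smallest possible p is 0.1. A two-sided exact permutation test within same-numbered pairs, added after the values had been seen, gave p = 0.25 for P2rx5, the smallest p that 3 pairs allow, and 0.875 after Benjamini-Hochberg adjustment over the 7 shares. The length-scaled P2X total itself was 139, 135 and 189.5 CPM per kilobase with vehicle and 151, 128 and 197 CPM per kilobase with HC-HA/PTX3, and the cultures numbered 3 were again the high ones.

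**Figure D3:**
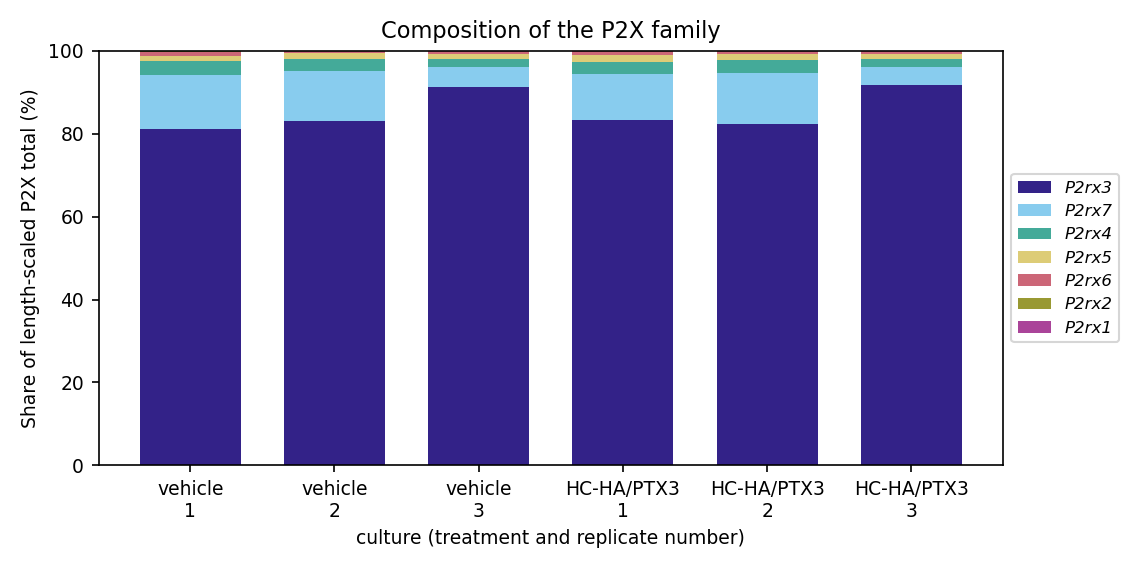
Share of each P2X gene in the length-scaled P2X total (percent, stacked bars) in the 3 vehicle and the 3 HC-HA/PTX3 cultures. P2rx3 takes 81.2 to 91.9% of each bar, and the bars numbered 3 show the smallest P2rx7 share, 4.70 and 4.29%.

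For P2rx3, P2rx6 and P2rx7, larger differences than those with treatment were seen between the replicate numbers. In a test of the replicate number within the same edgeR model (2 degrees of freedom), added after the values had been seen, 3 of 6 members passed an adjusted p of 0.05, where 33.8% of all tested genes did. These were P2rx7 (adjusted p = 1.41e-05), P2rx3 (adjusted p = 0.000228) and P2rx6 (adjusted p = 0.0074), all from edgeR with Benjamini-Hochberg adjustment. On the log2 scale, the pair numbered 3 differed from the mean of the other pairs by 0.64 for P2rx3 and by -0.94 for P2rx7. P2rx4 (adjusted p = 0.18), P2rx5 (adjusted p = 0.45) and P2rx2 (adjusted p = 0.741) did not pass this edgeR test. What the replicate numbers stand for is not given in the sources used here beyond the numbers themselves.

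For markers of the cell types that DRG cultures can hold, the share passing the test of the replicate number differed between the lists, beside 33.8% of all tested genes. All 6 satellite glia and all 5 large neuron markers passed, as did 4 of 5 markers each of myelinating Schwann cells, fibroblasts, mural cells and peptidergic nociceptors, 3 of 4 neutrophil, 3 of 5 pan-neuronal, 2 of 4 endothelial, 4 of 11 macrophage and 3 of 9 non-peptidergic markers. Of 6 satellite glia markers, 0 were called between the treatments, where 8.70% of all tested genes were, and 3 of 6 had an adjusted p under 0.05 in edgeR with Benjamini-Hochberg adjustment but a log2 fold change within 0.5, where 19.2% of all tested genes had such an adjusted p at any fold. These were Fabp7 (-0.40, adjusted p = 0.0154), Kcnj10 (-0.34, adjusted p = 0.0108) and Glul (0.28, adjusted p = 0.0198). Summed over the 6 markers, the level was 1752, 1003 and 451 CPM with vehicle and 1621, 1025 and 453 CPM with HC-HA/PTX3, Apoe being the most abundant per kilobase. The cultures numbered 3 were lowest in this sum and in P2rx7. On the log2 scale, the pair numbered 3 differed from the mean of the other pairs by -3.40 for Fabp7 and -4.89 for Kcnj10. This difference was -2.51 for Cdh19, -2.19 for Apoe, -1.32 for Sox10 and -0.27 for Glul, beside -0.94 for P2rx7. The 5 myelinating Schwann cell markers summed to 943, 681 and 554 CPM with vehicle and to 832, 574 and 534 CPM with HC-HA/PTX3, with Pmp22 the most abundant per kilobase. The part of glial cells in the P2rx7 levels was not tested, and in bulk RNA fewer cells of a type and less RNA per cell cannot be told apart.

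For macrophages, the cells in which P2X4 and P2X7 are best known, the 11 markers summed to 88.5, 115 and 97.9 CPM with vehicle and to 82.3, 118 and 73.4 CPM with HC-HA/PTX3. Lyz2 was the most abundant macrophage marker per kilobase, and 3 of 11, C1qa, C1qb and Cd163, were called lower, where 5.38% of all tested genes were, the share that also stands beside the counts of the fibroblast and mural lists. Cd163 was at 0.649, 0.954 and 0.679 CPM with vehicle. With HC-HA/PTX3 it was at 0.135, 0.396 and 0.0762 CPM, the last the equivalent of 3 counts. The other 8 markers were not called. Of all 11 log2 fold changes, 9 were negative and 2 positive, those of Lyz2 (0.00293) and Mrc1 (0.34), and that of Cd68 was -0.01. Among the treated cultures the macrophage sum was lowest in replicate 3, as P2rx7 was, while among the vehicle cultures it was lowest in replicate 1 and P2rx7 in replicate 3. The 5 fibroblast markers summed to 1488, 1573 and 644 CPM with vehicle and to 762, 1041 and 234 CPM with HC-HA/PTX3. Col1a1 was the most abundant of them per kilobase, and Col1a1 and Col3a1 were called lower. The fibroblast sum was low in both cultures numbered 3, as P2rx7 was. It was also lower with treatment in each pair. The log2 fold changes were -1.62 for Col1a1 and -0.96 for Col3a1. Those of the markers not called were -0.09 for Dcn, -0.31 for Lum and -0.25 for Pdgfra, beside -0.09 for P2rx7. The 5 smooth muscle and mural markers summed to 406, 475 and 366 CPM with vehicle and to 393, 457 and 249 CPM with HC-HA/PTX3. Acta2 was the most abundant of them per kilobase and the 1 called lower. The 4 endothelial markers, led per kilobase by Cdh5, summed to 163 to 204 CPM over the 6 cultures. The 4 neutrophil markers, led per kilobase by S100a9, summed to 3.23 to 8.38 CPM. In either list 0 were called, where 8.70% of all tested genes were. With no replicate block, 0 of these markers were called, as for all genes. The call of C1qa also ended with ComBat-seq and without vehicle replicate 1 or 3 or HC-HA/PTX3 replicate 1 or 3, that of C1qb without HC-HA/PTX3 replicate 1 or 3, and that of Acta2 with DESeq2, whose adjusted p for Cd163 was not given by the tool. The part of these cell types in the P2X levels was not tested.

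P2rx3 was set beside neuronal markers in the same way. The 9 markers of non-peptidergic nociceptors, the neurons that carry most P2X3, summed to 1762, 1545 and 1565 CPM with vehicle and to 1595, 1442 and 1653 CPM with HC-HA/PTX3. Ret was the most abundant of them per kilobase and Mrgprd the 1 of 9 called higher, at a log2 fold change of 0.62, where 3.32% of all tested genes were called higher. The high P2rx3 level of the cultures numbered 3 came with a sum of these markers that was near that of vehicle replicate 2 in vehicle replicate 3 and was the highest of the treated cultures in HC-HA/PTX3 replicate 3. The 5 peptidergic markers, led per kilobase by Calca, summed to 1202, 1296 and 1129 CPM with vehicle and to 1564, 1525 and 1271 CPM with HC-HA/PTX3. Of these 5, 1 was called higher, Tac1. The 5 large neuron markers, led by Spp1, summed to 2080.5, 1751 and 1500.3 CPM with vehicle and to 2056, 1832 and 1645 CPM with HC-HA/PTX3, with 0 called. The 5 pan-neuronal markers, led by Tubb3, summed to 4161, 3341 and 3711 CPM with vehicle and to 4530.4, 3794 and 4353 CPM with HC-HA/PTX3, with 0 called, and 8.70% of all tested genes stands beside these counts of 0. The pan-neuronal sums of the cultures numbered 3 lay between those of the other numbers, and P2rx3 was highest there. On the log2 scale, the pair numbered 3 differed from the mean of the other pairs by 0.60 for Rbfox3 and 0.16 for Snap25. This difference was 0.09 for Uchl1, -0.00133 for Stmn2 and -0.11 for Tubb3, beside 0.64 for P2rx3. No marker of any of the 11 lists was at 0 in all cultures, and the part of neuronal subtypes in the P2rx3 levels was not tested.

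**Figure D4:**
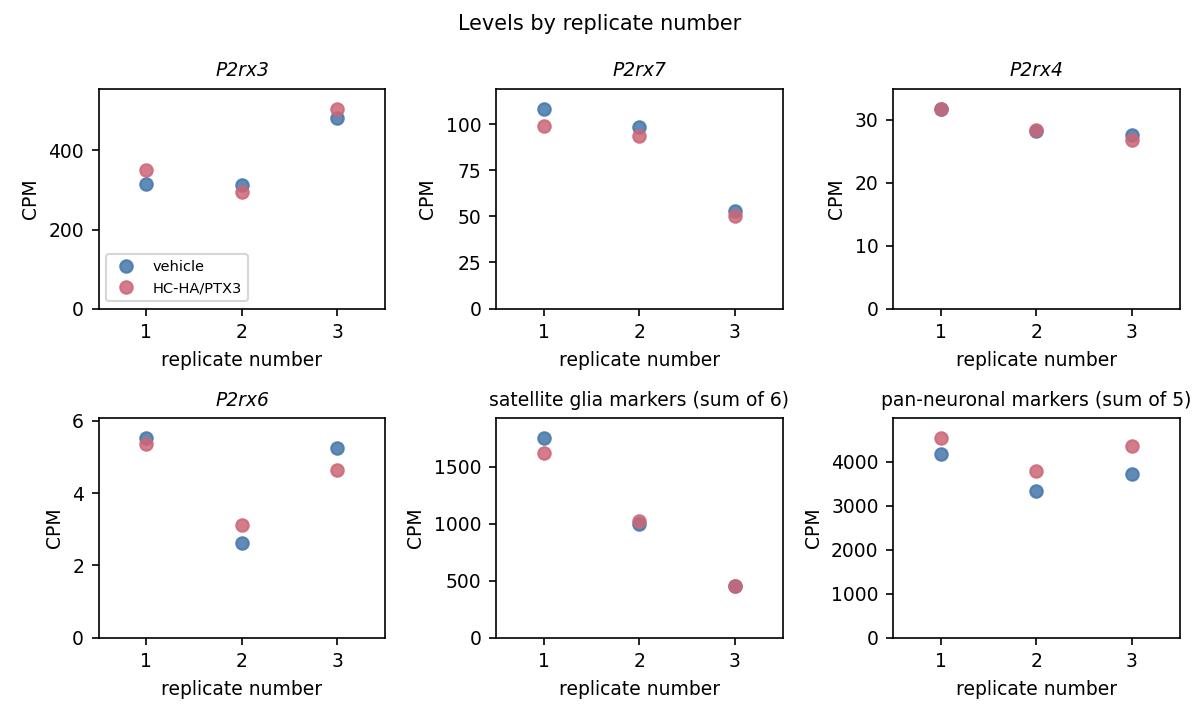
Level in CPM of P2rx3, P2rx7, P2rx4 and P2rx6 and the summed level of 6 satellite glia and 5 pan-neuronal markers, by replicate number, for vehicle and HC-HA/PTX3 cultures. The cultures numbered 3 are high for P2rx3 (483 and 505) and low for P2rx7 (53.1 and 50.5) and for the satellite glia sum (451 and 453).

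The genes whose log2 CPM ran most like that of a P2X gene over the 6 cultures were looked up among 13575 candidates, as a description of cultures that share pairs. For P2rx7 they were Slc9a3r1, Msi2 and Fkbp14, with Pearson r of 0.999, 0.998 and 0.998. For P2rx3 they were Usp31, Tmem189 and Btaf1, with r of 0.997, 0.996 and 0.996. For P2rx4 they were Ncald, Ntan1 and Clstn1 (r of 0.992, 0.992 and 0.988), and for P2rx6 Cntn4, LOC108168162 and Mid1ip1 (r of 0.994, 0.989 and 0.988). For P2rx5 they were Cyb5d2, Atg9a and Mcoln1, with r of 0.997, 0.996 and 0.994. With 6 cultures and this many candidates, values of this size are found for each of the 5 members looked up.

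The strand setting of the counting is not given in the sources used here, so reads of genes that overlap a P2X gene on the other strand cannot be told apart from its own. P2rx3 overlaps the start of Ssrp1, a histone chaperone gene on the plus strand, by 229 bp, of which 51 bp are exonic in both. Ssrp1 was at 127, 128 and 118 CPM with vehicle and at 70.0, 104 and 65.0 CPM with HC-HA/PTX3, every treated culture lying below every vehicle culture. Ssrp1 had a log2 fold change of -0.67 (adjusted p = 0.00243 in edgeR, Benjamini-Hochberg adjustment, lower in 3 of 3 pairs; adjusted p = 0.2997 with no replicate block), while the value of P2rx3 was 0.05. P2rx6 overlaps Slc7a4 on the minus strand by 5783 bp, 554 bp of it exonic in both. Slc7a4 was at 5.77, 6.08 and 8.48 CPM with vehicle and at 7.30, 6.75 and 9.52 CPM with HC-HA/PTX3, above P2rx6 in each culture, so reads of Slc7a4 may be among the P2rx6 counts, which was not tested. P2rx7 contains the microRNA gene Mir8115, which had 0 counts in all 6 libraries.

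Among the other genes next to the P2X genes, Pole, a DNA polymerase gene 2337 bp from P2rx2, was called lower (log2 fold change -1.09, adjusted p = 0.00112, lower in 3 of 3 pairs; adjusted p = 0.41 with no replicate block, edgeR with Benjamini-Hochberg adjustment). Camkk2, 1431 bp from P2rx4, had a log2 fold change of -0.26 (adjusted p = 0.029) and Ift81, before P2rx7, one of -0.41 (adjusted p = 0.0302) in the same edgeR test, both under the fold threshold. Camkk1 and Atp2a3 beside P2rx1, Emc6 beside P2rx5, Tnks1bp1 beside P2rx3 and Smpd4 beside P2rx6 were tested and not called. Itgae, Prg3, Lrrc74b and Lrcol1, next to P2rx5, P2rx3, P2rx6 and P2rx2, did not pass the low-count filter.

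The genes around P2X signalling, from ATP release to adenosine, made up 6 lists of 47 genes, of which 42 were tested. Of these, 3 were called higher and 3 lower with HC-HA/PTX3, 6 in all or 14.3%, beside 8.70% of all tested genes. A further 5 had an adjusted p under 0.05 in edgeR with Benjamini-Hochberg adjustment but a log2 fold change within 0.5. The median absolute log2 fold change was 0.211 over the 42 genes and 0.188 over all tested genes. With no replicate block, 0 of the 42 were called, as was the case for all 18277 genes.

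Most of the calls around the P2X receptors were in the ectonucleotidases, which remove the ATP that opens P2X channels. Of 9 tested, 2 were called higher and 2 lower, where 3.32% of all tested genes were called higher and 5.38% lower, and the list median was 0.02. All 9 also passed the test of the replicate number, as did 33.8% of all tested genes. Nt5e, which turns AMP into adenosine, was at 43.4, 41.6 and 55.1 CPM with vehicle and at 64.1, 56.1 and 84.1 CPM with HC-HA/PTX3, the groups not overlapping. Nt5e had a log2 fold change of 0.54, with an SE of 0.0703 (adjusted p = 0.00117 in edgeR, Benjamini-Hochberg adjustment, higher in 3 of 3 pairs), with an adjusted p of 0.343 with no replicate block and a fold change of 0.49 without vehicle replicate 3. Acpp, the acid phosphatase that also makes adenosine from AMP and the most abundant of the list per kilobase, was at 141, 109 and 135 CPM with vehicle and at 189, 143 and 179 CPM with HC-HA/PTX3. These groups did not overlap either, and the log2 fold change of Acpp of 0.41 (adjusted p = 0.0017, edgeR with Benjamini-Hochberg adjustment; 0.368 with no replicate block) was under the fold threshold.

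Entpd3, an enzyme of sensory neurons that removes phosphates from ATP, was at 20.6, 16.9 and 31.9 CPM with vehicle and at 33.3, 26.1 and 37.0 CPM with HC-HA/PTX3, higher in 3 of 3 pairs with groups that overlapped. Its log2 fold change of 0.51 (adjusted p = 0.00842, edgeR with Benjamini-Hochberg adjustment) was just past the threshold, and the call ended with no replicate block (adjusted p = 0.534), with limma-voom (0.48), with no low-count filter (0.49) and without vehicle replicate 1 (0.41), vehicle replicate 2 (0.44), HC-HA/PTX3 replicate 1 (0.41) or HC-HA/PTX3 replicate 2 (0.44). Enpp1, which cleaves ATP to AMP, was at 57.6, 32.9 and 20.7 CPM with vehicle and at 34.3, 22.7 and 10.3 CPM with HC-HA/PTX3, lower in 3 of 3 pairs with groups that overlapped. Enpp1 had a log2 fold change of -0.76, with an SE of 0.0978 (adjusted p = 0.00112 in edgeR, Benjamini-Hochberg adjustment, and 0.643 with no replicate block). Entpd2, the enzyme that favours ATP over ADP, was at 23.9, 15.3 and 2.80 CPM with vehicle and at 20.5, 8.57 and 1.40 CPM with HC-HA/PTX3. Here the replicate number spread the values more widely than the treatment, in the order of the satellite glia sum. Entpd2 had a log2 fold change of -0.62 (adjusted p = 0.0183, edgeR with Benjamini-Hochberg adjustment, lower in 3 of 3 pairs), and the call ended with no replicate block (adjusted p = 0.914) and without vehicle replicate 2 (adjusted p = 0.148), HC-HA/PTX3 replicate 2 (adjusted p = 0.0706) or HC-HA/PTX3 replicate 3 (log2 fold change -0.496). Entpd1, the enzyme also known as CD39, was at 59.0, 43.3 and 8.25 CPM with vehicle and at 84.2, 53.1 and 8.46 CPM with HC-HA/PTX3, a log2 fold change of 0.30 (adjusted p = 0.046, same edgeR test; 0.919 with no replicate block and 0.359 without the pair numbered 1) under the fold threshold. The part of glial cells in the levels of Entpd1 and Entpd2 was not tested.

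**Figure D5:**
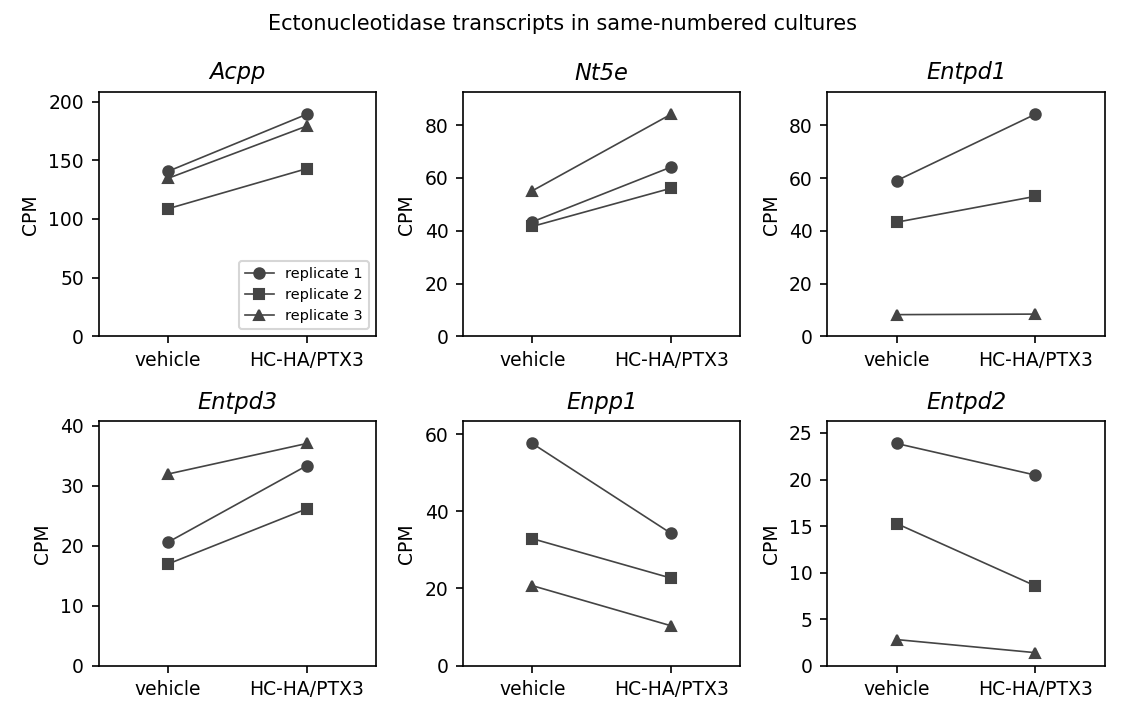
Level in CPM of 6 ectonucleotidase genes in vehicle and HC-HA/PTX3 cultures, with lines joining same-numbered cultures. Nt5e and Entpd3 were called higher and Enpp1 and Entpd2 lower with the replicate number as a block and none with no replicate block, and the cultures numbered 3 are the lowest for Entpd1 (8.25 and 8.46) and Entpd2 (2.80 and 1.40).

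Of the genes for adenosine, the product of those enzymes, 7 were tested and 1 was called lower, where 5.38% of all tested genes were, and the list median was 0.07. Slc29a1, a transporter that takes adenosine into cells, was at 29.6, 53.7 and 69.8 CPM with vehicle and at 20.4, 48.5 and 38.4 CPM with HC-HA/PTX3, lower in 3 of 3 pairs with groups that overlapped. Slc29a1 had a log2 fold change of -0.52 (adjusted p = 0.013, edgeR with Benjamini-Hochberg adjustment), and the call ended with no replicate block (adjusted p = 0.682), under upper-quartile scaling (-0.48), with ComBat-seq (-0.45) and without vehicle replicate 1 (adjusted p = 0.0588), vehicle replicate 3 (-0.34), HC-HA/PTX3 replicate 1 (adjusted p = 0.0686) or HC-HA/PTX3 replicate 3 (-0.32). Adora1, the inhibitory adenosine receptor and the most abundant of the list per kilobase, was at 70.8 to 84.2 CPM with vehicle and 73.8 to 95.5 CPM with HC-HA/PTX3 and was not called. Adora3 had 0 counts in all 6 libraries, which allows a level of up to 0.0808 CPM in HC-HA/PTX3 replicate 1.

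The P2Y receptors, the G protein-coupled receptors for extracellular nucleotides, which differ in whether they answer to ATP, ADP, UTP, UDP or UDP-sugars, had 0 of 6 tested genes called, where 8.70% of all tested genes were, and a list median of -0.29. P2ry2 was the most abundant per kilobase, at 25.9, 32.5 and 28.6 CPM with vehicle and 27.2, 29.9 and 27.7 CPM with HC-HA/PTX3, and the groups overlapped. P2ry12, P2ry13 and P2ry14, singled out after their values were seen, had log2 fold changes of -0.54, -1.01 and -0.65 with adjusted p of 0.0746, 0.0663 and 0.069 in edgeR with Benjamini-Hochberg adjustment, each lower in 3 of 3 pairs. P2ry12 was at 6.02, 2.30 and 0.607 CPM with vehicle and P2ry14 at 2.25, 2.05 and 0.929 CPM. With HC-HA/PTX3 they were at 3.66, 1.77 and 0.457 CPM and at 1.24, 1.24 and 0.762 CPM. P2ry13 was counted 16, 28 and 35 times with vehicle and 6, 11 and 15 times with HC-HA/PTX3. All 3 were called when no low-count filter was applied, the fit whose spread came from the trend alone, and P2ry13 and P2ry14 with ComBat-seq and limma, while with no replicate block their adjusted p reached 0.869, 0.414 and 0.573. P2ry4 did not pass the low-count filter.

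In the ATP release list, 0 of 5 tested genes were called, beside 8.70% of all tested genes, and the median log2 fold change was 0.19. Lrrc8a, a subunit of volume-regulated channels, was the most abundant per kilobase, at 171, 159 and 196 CPM with vehicle and 184, 187 and 229 CPM with HC-HA/PTX3. Panx1, the pannexin channel that passes ATP and is known to work with P2X7, was at 41.6, 46.5 and 47.7 CPM with vehicle and at 59.5, 54.8 and 60.4 CPM with HC-HA/PTX3, all treated values lying above all vehicle values. Panx1 had a log2 fold change of 0.36 (adjusted p = 0.0095, edgeR with Benjamini-Hochberg adjustment; 0.285 with no replicate block and 0.0638 without the pair numbered 1), under the fold threshold.

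Proteins known to bind or modify P2X receptors had 0 of 6 tested genes called, beside 8.70% over all tested genes, and a list median of -0.15. Pirt, a membrane protein of sensory neurons that binds P2X3, was the most abundant of the list per kilobase. Pirt was at 760.3, 734 and 759 CPM with vehicle and at 624, 603 and 669 CPM with HC-HA/PTX3, all treated values lying below all vehicle values. Pirt had a log2 fold change of -0.25 (adjusted p = 0.0208, edgeR with Benjamini-Hochberg adjustment, lower in 3 of 3 pairs; adjusted p = 0.374 with no replicate block and 0.138 without the pair numbered 2), under the fold threshold. Cdk5r1, the activator of the kinase Cdk5, was at 25.8, 23.9 and 22.9 CPM with vehicle and at 17.0, 19.2 and 16.4 CPM with HC-HA/PTX3, with groups that did not overlap. Cdk5r1 had a log2 fold change of -0.46 (adjusted p = 0.00763, same edgeR test), under the fold threshold. It was -0.54 (adjusted p = 0.0245) without the pair numbered 2, past that threshold, and -0.40 (adjusted p = 0.0738) without the pair numbered 1, and the adjusted p of Cdk5r1 was 0.269 with no replicate block.

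Downstream of P2X4 and P2X7, 1 of 9 tested inflammasome and cytokine genes was called higher, where 3.32% of all tested genes were, and the list median was 0.02. Casp1, the protease that the inflammasome activates, was at 8.79, 12.4 and 7.88 CPM with vehicle and at 15.3, 18.9 and 14.4 CPM with HC-HA/PTX3, with every treated value above every vehicle value. Casp1 had a log2 fold change of 0.76, with an SE of 0.106 (adjusted p = 0.00156 in edgeR, Benjamini-Hochberg adjustment, higher in 3 of 3 pairs, and adjusted p = 0.296 with no replicate block). Nek7, a partner of NLRP3 and the most abundant of the list per kilobase, was at 245, 191 and 197 CPM with vehicle and 219, 189.8 and 188 CPM with HC-HA/PTX3 and was not called. Nlrp3 itself, the sensor of the inflammasome, was at 0.714 to 1.05 CPM with vehicle and 0.458 to 0.787 CPM with HC-HA/PTX3, a log2 fold change of -0.46 (adjusted p = 0.318, same edgeR test). Il1b, counted 6 to 11 times per library, did not pass the low-count filter.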

How the data were processed

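Raw counts per gene were deposited by the authors, 1 table per culture, neither normalized nor pooled. Per the methods, read pairs were aligned to mm10 with HISAT2, ribosomal RNA reads were removed and genes were counted with featureCounts; STAR is the aligner per the file headers, and the strand setting is not given in the sources used here. Of 35976 genes, 18277 passed filterByExpr and were tested with edgeR 4.0.16 in R 4.3.3 (TMM scaling, glmQLFit and glmQLFTest, Benjamini-Hochberg adjustment), with the replicate number as a block in place of the batch term of the methods, which do not list the batches. Calls needed an adjusted p under 0.05 together with a log2 fold change beyond 0.5 in either direction. The pairing comes from the replicate numbers of the labels and was checked: deviations from group means correlated across genes at 0.631, 0.536 and 0.774 between same-numbered cultures and at -0.613 to 0.148 between others. A chi-square test of counts between libraries of 1 group gave 31.4 to 108 per degree of freedom, so no library duplicated another of its own group. The study calls the libraries biological replicates; whether each culture came from separate animals is not given in the sources used here.

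Gene positions and exon lengths are those of GENCODE M21 on mm10, matched by symbol, and may differ from the gene models that were counted. Promoters are from RefSeq (GRCm38.p6), where 4 of the 7 P2X genes matched. Named are all P2X genes, called genes and the most abundant gene of each list, the genes next to or overlapping a P2X gene, and, for members with a mean of at least 1 CPM, the 3 genes with the highest Pearson r of log2 CPM (prior count 2); other genes were chosen after their values were seen. The lists were P2Y receptors, adenosine genes, ectonucleotidases, ATP release, P2X-interacting proteins, inflammasome and cytokine genes, and 11 lists of cell type markers. Members and lists were chosen with earlier results of these data known. Alternatives were no block, upper-quartile and RLE scaling, no or a stricter low-count filter (10 counts in every culture), DESeq2 1.42.0, limma-voom (limma 3.58.1), ComBat-seq (sva 3.50.0) with limma, raw library sizes and longest transcripts for the shares, and each culture or pair left out. The authors' own comparison tables were not used here. The test result of 1 Schwann cell marker is not reported here.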

Additional observations from a re-analysis of the deposited data

How the results depend on the processing

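In every alternative run, 0 P2X genes were called. The replicate block decided the calls elsewhere: with no replicate block, genes called went from 1591 to 0 and calls in the purinergic lists from 6 to 0, and no P2X call changed. Leaving out cultures or pairs gave 878 to 2010 genes called, with 957 without vehicle replicate 1, 895 without HC-HA/PTX3 replicate 1 and 878 without that pair.

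Signs of P2X fold changes near 0 turned: P2rx4 to 0.0209 (upper-quartile scaling) and 0.00225 (ComBat-seq), and P2rx6 to 0.027 and 0.0456. With cultures or pairs left out, log2 fold changes ran from -0.74 to 0.20 (P2rx2), -0.0105 to 0.109 (P2rx3), -0.0321 to 0.0194 (P2rx4) and -0.12 to 0.10 (P2rx6), those of P2ry2 from -0.0833 to 0.00863 and those of Adora1 from -0.00968 to 0.16; the cause was not tested. P2rx5 and P2rx7 kept their signs in all 17 alternatives. The replicate-number test gave 3 members in each alternative run with the block and all cultures. With no low-count filter, P2rx1 was among the genes tested as well. The P2rx3 share stayed within 1 SD under all alternatives run, with 87.1% (vehicle) and 87.8% (HC-HA/PTX3) for longest transcripts.

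The depth limits P2rx1 and P2rx2, counted at most 14 and 26 times per library. It also limits P2ry13, counted 6 to 35 times per library.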
